A study of Mus musculus with 24 samples.

Results

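BMDMs, macrophages grown from mouse bone marrow, were exposed to medium conditioned by NRF2 KO LL2 lung cancer cells, and the response to CDDO-Me in that medium is described here from 6 of the 24 libraries of the series. The members were picked by their labels, with earlier results of these data known. They are the 3 libraries of NRF2 KO CM with CDDO-Me and the 3 with vehicle, read across 35770 named genes. Marrow came from C57BL/6 mice and was grown with 20 ng/mL M-CSF for 5 days, then for 48 h more. LL2 cells, a Lewis lung carcinoma line from the same strain, conditioned DMEM with serum for 48 h. The BMDMs received 75% of this medium and 25% fresh medium, together with 100 nM CDDO-Me or vehicle for 24 h. The other 18 libraries had the same treatments in control media, WT CM or KEAP1 KO CM, with 3 libraries in each of the 8 groups. The NRF2 knockout was made with CRISPR plasmids and lies in the cancer cells that conditioned the medium, so every macrophage sequenced here was unedited and carried NRF2 and KEAP1. Library names point to a single NRF2 KO line. The study's methods call the 3 samples of a group independent, but neither they nor the sample titles tie the samples to separate animals. The p-values therefore measure the spread between these samples, which may be partly technical.

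CDDO-Me (bardoxolone methyl) is a synthetic oleanane triterpenoid. KEAP1 is an adaptor protein that hands the transcription factor NRF2 to the proteasome, and triterpenoids of this kind react with KEAP1 so that NRF2 is spared, enters the nucleus, pairs with a small MAF protein and binds antioxidant response elements. Its targets supply glutathione, thioredoxin and NADPH, detoxify electrophiles, and handle heme and iron. In macrophages the same drug class is known for acting on inflammatory and interferon genes as well, and medium from cancer cells can shift macrophages towards an alternatively activated state marked by Arg1, Mrc1 and Chil3.

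The 2 libraries numbered replicate 3 stood apart from the rest. Replicates 1 and 2 of the 2 NRF2 KO CM groups had 18341 to 18993 named genes above 0, whereas replicate 3 had 15702 with vehicle and 16299 with CDDO-Me, against 17817 to 18586 in the 18 libraries of the other media. With vehicle, 3387 genes of replicate 3 lay more than 1 log2 unit from the mean of the other 2 libraries, compared with 705 for replicate 1 and 924 for replicate 2. Each column was scaled to the same total, so the number of reads behind a value is unknown. The counts below are therefore also given without both replicate 3 libraries. All 12 macrophage markers searched were present, with a summed level of 28181 to 32299 TPM with vehicle and 31841 to 40623 TPM with CDDO-Me, where TPM is a relative transcript level corrected for transcript length. The 12 fibroblast markers summed to 1348 to 3939 TPM with vehicle and 839 to 2869 TPM with CDDO-Me. Markers of T and NK cells summed to at most 2.68 TPM and those of epithelial and LL2 cells to at most 4.62 TPM in any of the 6 libraries. RNA came from whole cultures, so fewer cells of a type and less RNA per cell cannot be told apart.

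CDDO-Me changed the macrophages widely in NRF2 KO CM, with higher levels of most genes that make glutathione, thioredoxin and detoxifying enzymes, while cell cycle genes, sterol synthesis genes and the chemokines Ccl3 and Ccl4 fell. Interferon-stimulated genes, alternative activation genes and MHC genes were for the most part not called. Of 13661 genes tested with limma at an adjusted p of 0.05, 614 rose and 721 fell, which is 9.77% of the genes tested (4.49% higher and 5.28% lower). The 4.49% and 5.28% are the background for every count of a gene list in this comparison. The change was at least 1 log2 unit for 273 of the risers and 283 of the fallers. After scaling, the 2 groups did not overlap for 2329 of the genes tested (17%) and for 1238 of the genes called (92.7%). When the 2 libraries numbered 3 were left out, 1352 genes were called, 674 of them higher. Of the 1335 genes called with all libraries, 942 were called again (70.6% of the first list and 69.7% of the second), and all 1328 that could be tested kept their direction. Both fits use replicates 1 and 2 of these groups, so the shared direction was largely built in. The plot of all genes against their level shows the spread of these changes, and the plot of fold changes with and without replicate 3 shows how far they moved.

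**Figure D1:**
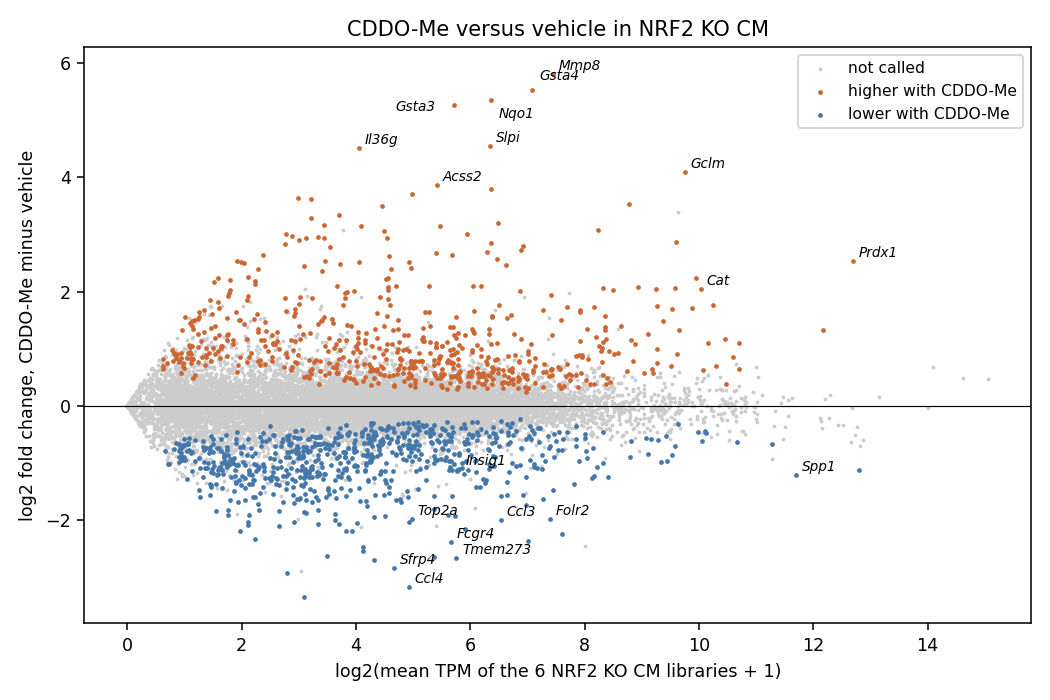
Log2 fold change of CDDO-Me over vehicle in NRF2 KO CM (vertical axis) against log2 of the mean TPM of the 6 libraries plus 1 (horizontal axis), 1 point per gene tested (13661), with the 614 genes called higher in orange, the 721 called lower in blue and the rest in grey. Mmp8, Gsta4, Nqo1 and Gsta3 stand highest among the labelled genes, and Ccl4 lowest.

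**Figure D2:**
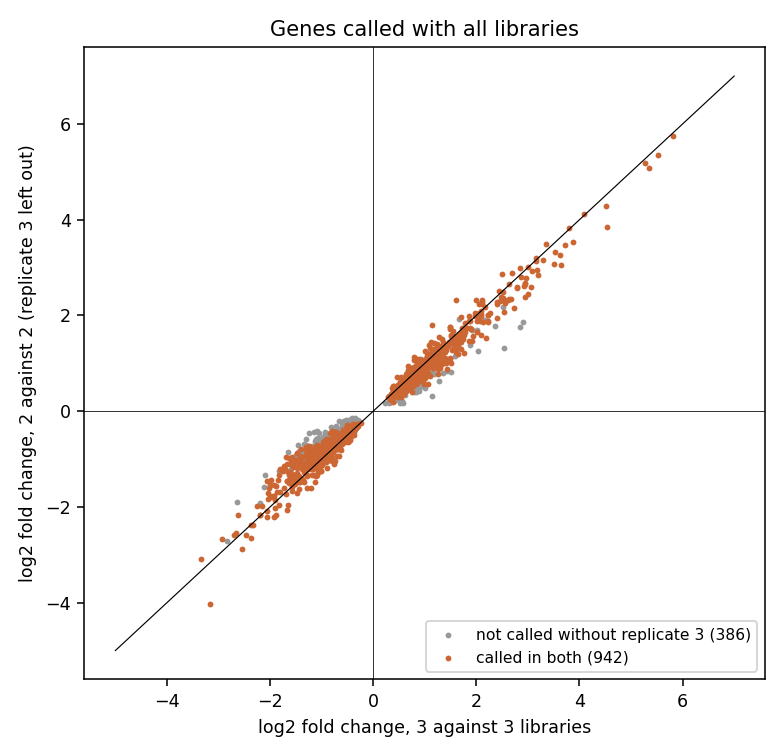
Log2 fold changes of the genes called with all libraries, from 3 against 3 libraries (horizontal axis) and from 2 against 2 with both replicate 3 libraries left out (vertical axis), with the diagonal as a line. All 1328 points lie in the same-direction quadrants, 942 of them called in both fits (orange) and 386 not called without replicate 3 (grey).

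The fit across all 24 libraries takes its spread from 8 groups. With the 6 NRF2 KO CM libraries alone and 4 residual degrees of freedom, 142 genes passed (104 higher and 38 lower), and all 142 were among the 1335. Adding the replicate number as a block to these 6 libraries gave 634 genes, and array weights over all 24 gave 3033. Of the NRF2 target genes described next, Nqo1, Gsta3, Gsta4, Gclm, Gss, Slc7a11, Srxn1, Prdx1, Pgd and Hmox1 passed in the fit of 6 libraries as well, whereas Gclc, Ggt5, Gpx3, G6pdx, Taldo1, Slc48a1, Slc40a1, Sqstm1 and Mafg did not, with adjusted p from 0.0507 (Gpx3) to 0.614 (Mafg). Among the falls described below, Ccl3, Ccl4, Top2a, Ccna2, Mcm4, Birc5, Msmo1, Stard4 and Srebf2 did not pass there. Their adjusted p in that limma fit ran from 0.0605 (Birc5) to 0.379 (Srebf2). These genes are not all that were lost. Other falls that did not pass included Irgm1 (adjusted p = 0.618), Gpnmb (0.586), Calr (0.313) and Spp1 (0.085). Rises that did not pass included Slpi (0.155), Tnfsf4 (0.149), Slc2a1 (0.138) and Pkm (0.0563). Of 105 gene values followed in the fit of 6 libraries, 65 lost the call.

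Before their values, the promoters of 6 NRF2 target genes are shown, since they hold the sequence that NRF2 and its MAF partner are known to bind. They are the 6 genes of the NRF2 target lists with the smallest adjusted p among those with TGACNNNGC, the core of the antioxidant response element, on either strand within the 250 bases before the start. The sequences come from RefSeq (table of build GRCm38.p6), are written 5′ to 3′ on the strand of the gene with the core in capitals, and each matched GRCm39 at the single place given. Gsta3 lies at chr1:21310559-21310808 on the plus strand, Prdx1 at chr4:116542546-116542795 (plus), Gclm at chr3:122038956-122039205 (plus), Txnrd1 at chr10:82694790-82695039 (plus), Abcc4 at chr14:118943632-118943881 (minus) and Mgst1 at chr6:138117275-138117524 (plus).
Gsta3: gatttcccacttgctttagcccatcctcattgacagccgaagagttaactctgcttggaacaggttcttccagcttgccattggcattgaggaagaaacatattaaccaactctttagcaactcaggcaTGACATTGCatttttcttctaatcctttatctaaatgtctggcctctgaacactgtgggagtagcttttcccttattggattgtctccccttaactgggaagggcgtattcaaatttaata
Prdx1: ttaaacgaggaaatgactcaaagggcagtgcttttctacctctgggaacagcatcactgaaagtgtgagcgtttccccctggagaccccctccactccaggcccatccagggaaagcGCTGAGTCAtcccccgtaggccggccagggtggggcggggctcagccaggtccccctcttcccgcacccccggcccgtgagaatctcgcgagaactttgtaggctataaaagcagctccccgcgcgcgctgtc
Gclm: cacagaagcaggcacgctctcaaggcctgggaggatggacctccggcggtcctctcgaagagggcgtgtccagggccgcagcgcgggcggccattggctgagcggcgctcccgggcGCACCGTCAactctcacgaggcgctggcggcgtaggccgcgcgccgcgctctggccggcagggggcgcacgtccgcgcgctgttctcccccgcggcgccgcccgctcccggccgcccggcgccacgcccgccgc
Txnrd1: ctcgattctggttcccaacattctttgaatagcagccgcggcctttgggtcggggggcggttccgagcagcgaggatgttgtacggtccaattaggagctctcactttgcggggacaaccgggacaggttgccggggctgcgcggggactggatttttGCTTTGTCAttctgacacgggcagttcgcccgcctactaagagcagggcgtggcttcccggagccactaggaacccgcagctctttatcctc
Abcc4: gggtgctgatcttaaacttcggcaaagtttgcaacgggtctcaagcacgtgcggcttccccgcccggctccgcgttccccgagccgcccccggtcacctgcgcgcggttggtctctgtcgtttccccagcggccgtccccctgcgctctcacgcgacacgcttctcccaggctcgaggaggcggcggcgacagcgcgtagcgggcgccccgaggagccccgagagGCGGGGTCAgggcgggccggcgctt
Mgst1: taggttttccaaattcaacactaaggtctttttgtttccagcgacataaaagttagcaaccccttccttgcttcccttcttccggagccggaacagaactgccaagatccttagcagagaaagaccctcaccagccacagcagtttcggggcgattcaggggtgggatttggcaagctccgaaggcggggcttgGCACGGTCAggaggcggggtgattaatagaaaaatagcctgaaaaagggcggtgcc

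Only the Gsta3 promoter reads TGACNNNGC on the strand of the gene, and the other 5 hold its reverse complement. The core begins 121 bases before the start in Gsta3, 133 in Prdx1, 134 in Gclm, 92 in Txnrd1, 56 in Mgst1 and 25 in Abcc4. Among promoters of genes called higher, 89 of 611 (14.6%) held the core, against 85 of 708 (12.0%) for genes called lower, 1493 of 12794 (11.7%) for all genes tested and 10.2% of all 32851 promoters in the table. For the tested NRF2 target genes, of which 44 of 54 had a promoter in the table, the share was 11 of 59 promoters (18.6%). The core of the interferon-stimulated response element, on either strand, was present in 16 of 611 promoters of higher genes (2.62%), 40 of 708 of lower genes (5.65%) and 361 of 12794 of all genes tested (2.82%). These shares are descriptions of short windows, and a promoter without a match may hold the element elsewhere.

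Of the 54 tested genes of the 5 NRF2 target lists, 40 were called higher and 1 lower, beside a background of 4.49% called higher, and their median log2 fold change was 1.57 against -0.01 over all genes tested. Without replicate 3 the counts were 39 and 0. The lists were chosen with earlier results of these data known. Detoxification and export led the group, with 16 of 18 tested members called higher and none lower. Nqo1, a quinone reductase at chr8:108113835-108129934 (GRCm39), was at 3.00, 3.70 and 2.16 TPM in the vehicle libraries and 156, 133 and 189.8 TPM with CDDO-Me (log2 fold change 5.35, SE 0.33, adjusted p = 3.41e-09). Every treated library was far above every vehicle library, and the mean level was 54.0 times higher. Gsta3, a glutathione S-transferase at chr1:21310806-21335885, stood at 1.83, 1.18 and 1.81 TPM with vehicle and 101, 80.1 and 123 TPM with CDDO-Me (log2 fold change 5.27, SE 0.33, adjusted p = 3.41e-09). Its relative Gsta4 went from 5.00, 3.42 and 5.18 TPM to 230.3, 189 and 369 TPM (log2 fold change 5.53, SE 0.44, adjusted p = 1.15e-07). Replicate 3 was the highest treated library for all of Nqo1, Gsta3 and Gsta4. The groups did not overlap, which was a condition for being named among the largest rises. Abcc1, an exporter of glutathione conjugates, was 6.85 times higher (log2 fold change 2.79, SE 0.17, adjusted p = 3.41e-09), and Abcc4, another exporter of the same family, 4.73 times higher. The membrane-bound transferase Mgst1 rose 4.10-fold.

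In the glutathione list 7 of 11 genes were called higher and 1 lower, with a median log2 fold change of 2.01. Gclm, the modifier subunit of the enzyme that makes the first step of glutathione synthesis, lies at chr3:122039126-122065061 and was at 68.2, 80.0 and 137 TPM with vehicle and 1236, 1314 and 2331 TPM with CDDO-Me (log2 fold change 4.09, SE 0.28, adjusted p = 1.33e-08). Its catalytic partner Gclc was at 23.3, 24.4 and 36.4 TPM and 124, 115 and 262 TPM (log2 fold change 2.46, SE 0.28, adjusted p = 7.07e-06), so both subunits were high in all 3 treated libraries and highest in replicate 3. Gss, which completes glutathione, rose from 14.1, 18.7 and 6.71 TPM to 92.1, 90.0 and 139 TPM (log2 fold change 3.01, SE 0.25, adjusted p = 1.54e-07). The cystine importer Slc7a11 rose from 1.91, 1.34 and 3.97 TPM to 23.5, 20.9 and 44.7 TPM (log2 fold change 3.15, SE 0.37, adjusted p = 1.01e-05). Both steps were without overlap between the groups. Ggt5, a gamma-glutamyl transferase, had an adjusted p of 0.0367 that became 0.0604 without replicate 3, and its log2 fold change of 2.01 was lowest without vehicle replicate 3 (1.21, adjusted p = 0.163). It was also lost without CDDO-Me replicate 1 or 2. Gpx3, a secreted glutathione peroxidase, was the member called lower, at 222, 229.6 and 238 TPM with vehicle and 87.6, 96.0 and 46.8 TPM with CDDO-Me (log2 fold change -1.63, SE 0.35, adjusted p = 0.00437), and its adjusted p was 0.0799 without replicate 3. Gpx1, Gpx4 and Chac2 were not called.

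For thioredoxin, 5 of 7 genes were called higher and none lower. Prdx1, a peroxiredoxin that uses thioredoxin to remove peroxides, was the most abundant of the called NRF2 targets, at 2310.4, 2249 and 1459 TPM with vehicle and 11243, 11155 and 11517 TPM with CDDO-Me (log2 fold change 2.53, SE 0.15, adjusted p = 3.41e-09). The 3 treated values lay within a few percent of each other. Srxn1, the sulfiredoxin that repairs overoxidized peroxiredoxins, went from 69.3, 75.9 and 46.7 TPM to 568, 527 and 519 TPM (log2 fold change 3.08, SE 0.20, adjusted p = 4.48e-09). Txnrd1, thioredoxin reductase, rose 4.15-fold and Txn1, thioredoxin itself, 2.09-fold.

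NADPH supply had 6 of 8 genes called higher, among them Pgd of the pentose phosphate pathway at 361, 336 and 203 TPM with vehicle and 1274, 1264 and 1124 TPM with CDDO-Me (log2 fold change 2.07, SE 0.12, adjusted p = 3.41e-09). G6pdx, which opens that pathway, rose 2.32-fold, and Taldo1, transaldolase, 4.14-fold. Of the heme and iron genes 6 of 10 were called higher and none lower. Hmox1, heme oxygenase, which opens the heme ring, was at 377, 368 and 294 TPM and 1036, 954 and 1389.8 TPM (log2 fold change 1.69, SE 0.18, adjusted p = 2.94e-06). Blvrb, a biliverdin reductase, rose 4.08-fold, the heme transporter Slc48a1 2.45-fold and the iron exporter Slc40a1 2.30-fold. The ferritin genes Fth1 and Ftl1 were not called.

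**Figure D3:**
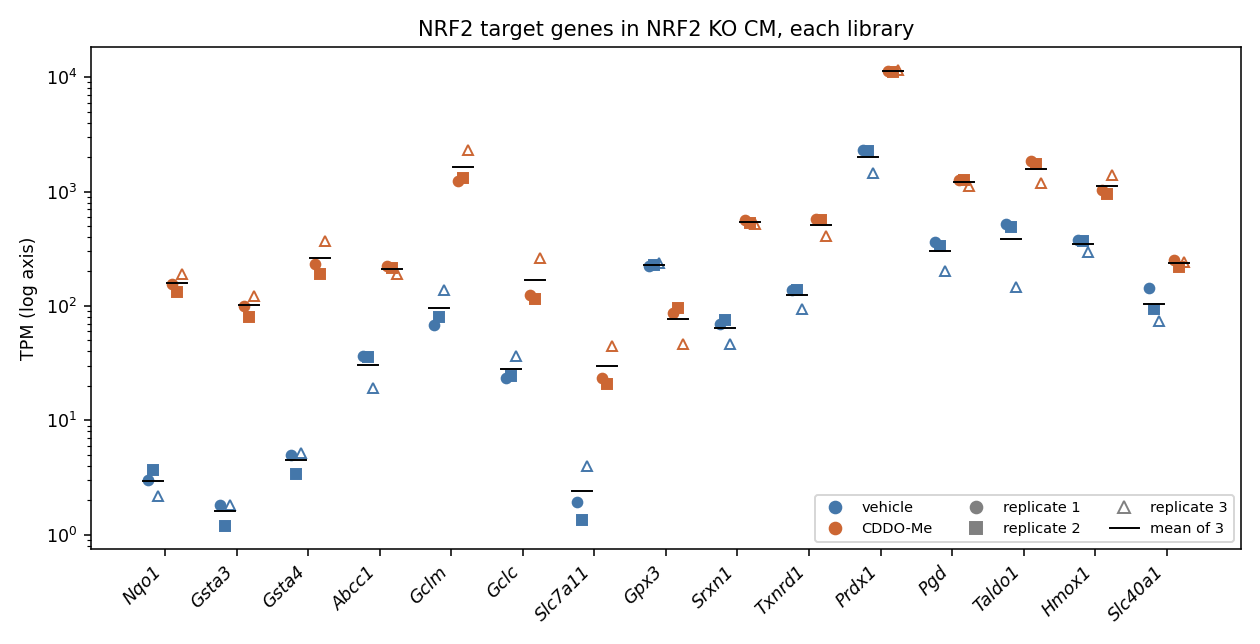
Levels of 15 NRF2 target genes in TPM on a log axis in the 6 NRF2 KO CM libraries, vehicle in blue and CDDO-Me in orange, with 1 point per library (circle, square and open triangle for replicates 1, 2 and 3) and a bar at the mean of 3. Gpx3 lies lower with CDDO-Me, and the other 14 genes lie higher in every treated library than in any vehicle library.

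The regulators of the pathway moved little at the RNA level, with 2 of 10 called higher and none lower. Sqstm1, the autophagy receptor that can draw KEAP1 away from NRF2, was at 442, 451 and 344 TPM and 844, 777 and 822 TPM (log2 fold change 0.99, SE 0.14, adjusted p = 9.11e-05). Mafg, a small MAF partner, had an adjusted p of 0.0347 that became 0.0794 without scaling between libraries, and its log2 fold change of 0.88 was lower without vehicle replicate 3 (0.43, adjusted p = 0.118). Mafg was also lost without CDDO-Me replicate 1 or 2. Nfe2l2, which encodes NRF2, was at 286, 242 and 459 TPM with vehicle and 178, 181 and 255 TPM with CDDO-Me, with the groups overlapping (log2 fold change -0.65, SE 0.26, adjusted p = 0.148), and it passed as lower without vehicle replicate 2 (adjusted p = 0.0416) or CDDO-Me replicate 3. Keap1 was not called either (log2 fold change 0.52, SE 0.20, adjusted p = 0.118), but passed without replicate 3 (adjusted p = 0.0012). Bach1, a repressor that competes for the same element, missed the threshold (log2 fold change 0.48, SE 0.16, adjusted p = 0.0602) and passed with the replicate block, with RLE scaling, without scaling and with array weights.

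The gene with the highest fold change of all named genes was not in the NRF2 target lists. Mmp8, neutrophil collagenase, was at 2.05, 1.60 and 10.3 TPM with vehicle and 184, 125 and 711 TPM with CDDO-Me (log2 fold change 5.82, SE 0.71, adjusted p = 1.38e-05), and replicate 3 was the highest library in both groups. Slpi, a secreted inhibitor of leukocyte proteases, went from 17.6, 9.65 and 0 TPM to 208, 189 and 57.1 TPM (log2 fold change 4.54, SE 0.75, adjusted p = 3.75e-04). Il36g, an epithelial and macrophage cytokine of the IL-1 family, went from 0.403, 0.396 and 0.286 TPM to 26.0, 28.4 and 37.6 TPM (log2 fold change 4.51, SE 0.35, adjusted p = 8.33e-08). Slpi was lowest in replicate 3 of both groups and Il36g was below 1 TPM in all vehicle libraries. Acss2, which makes acetyl-CoA from acetate, rose from 5.71, 5.57 and 2.65 TPM to 76.7, 72.5 and 86.6 TPM (log2 fold change 3.87, SE 0.25, adjusted p = 4.48e-09). Procr, the protein C receptor, rose 14.7-fold, and Bst1, an ectoenzyme of the CD38 family, rose from 2.43, 2.71 and 4.27 TPM to 44.0, 34.0 and 95.8 TPM (log2 fold change 3.71, SE 0.34, adjusted p = 4.68e-07). Of 15 matrix protease and inhibitor genes tested, 3 were higher and 1 lower, beside the background of 4.49% and 5.28%. Mmp19 rose 3.24-fold, and Mmp12, macrophage elastase, was at 1987, 2049.7 and 3893 TPM and 4935, 5273 and 9397 TPM (log2 fold change 1.32, SE 0.30, adjusted p = 0.00639). Plau, urokinase, was 2.17 times lower, with an adjusted p of 0.0119 that became 0.0914 without replicate 3.

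**Figure D4:**
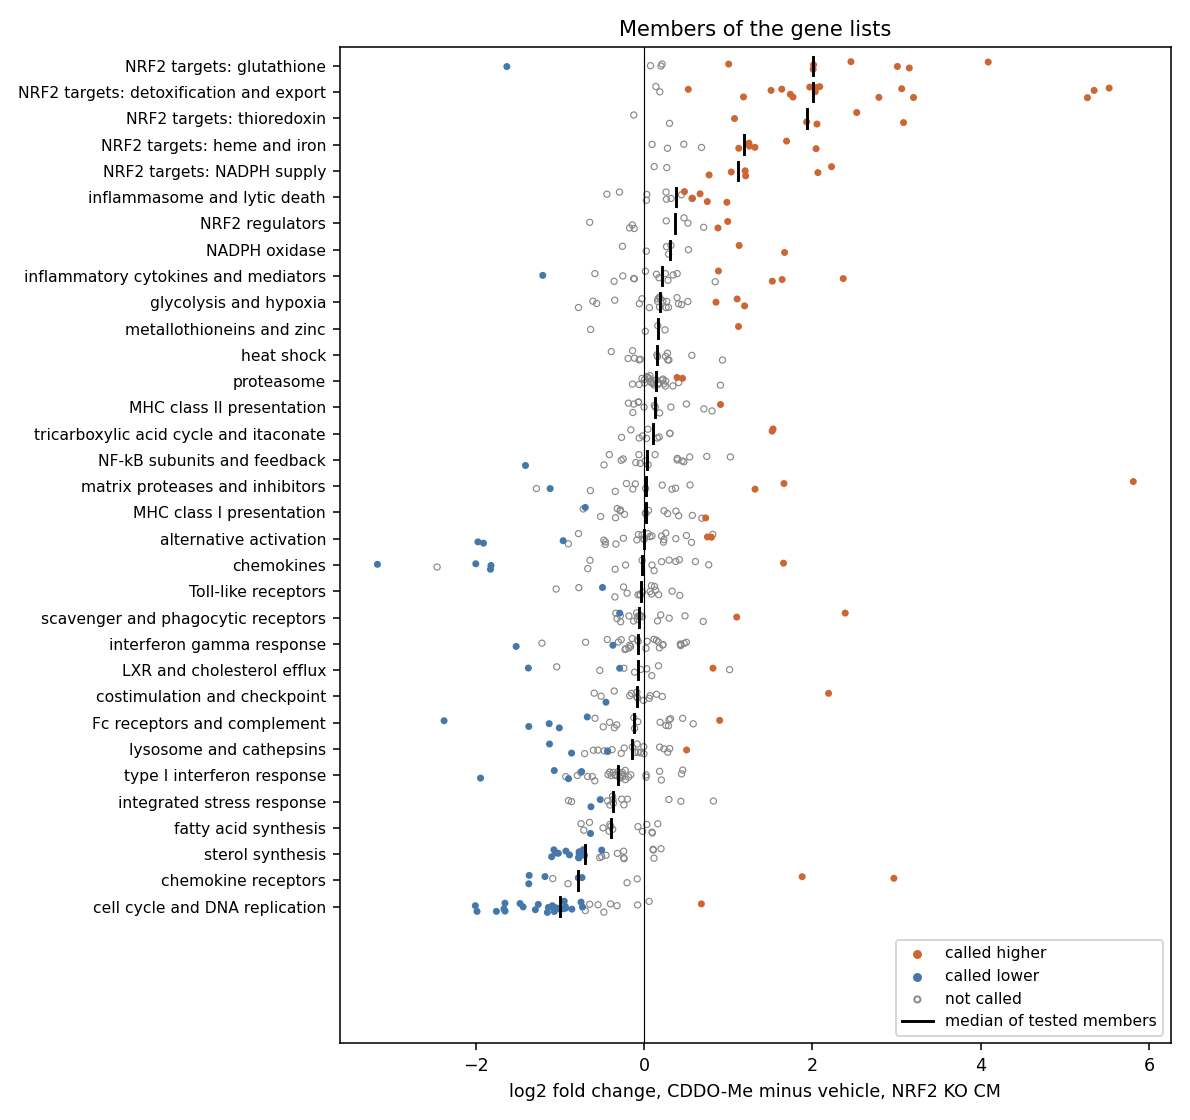
Log2 fold change of CDDO-Me over vehicle in NRF2 KO CM for every tested member of the 33 pathway lists, ordered by the list's median (black bar), with members called higher in orange, called lower in blue and not called as open circles. The 5 NRF2 target lists lie highest, with medians between 1.12 and 2.01, and the cell cycle list lowest, with a median of -1.0.

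Among the inflammatory cytokines and mediators, 4 of 18 tested genes were called higher and 1 lower, beside the background of 4.49% and 5.28%, and the levels of the risers were low. Ptgs2, the inducible cyclooxygenase, was at 1.08, 0.874 and 2.08 TPM with vehicle and 5.00, 3.84 and 9.08 TPM with CDDO-Me (log2 fold change 1.53, SE 0.35, adjusted p = 0.00696). Il6 was at 0.225, 0.230 and 0 TPM and 2.65, 2.05 and 3.11 TPM (log2 fold change 1.64, SE 0.44, adjusted p = 0.0202), and Il1b at 2.60, 1.27 and 2.00 TPM and 9.35, 8.44 and 33.7 TPM (log2 fold change 2.37, SE 0.69, adjusted p = 0.0343). Without replicate 3 their adjusted p was 0.135 for Il6 and 0.20 for Il1b, and Ptgs2 passed (0.0132), so that 1 gene of the list was higher and 1 lower. Il6 was also lost without either replicate 3 library or CDDO-Me replicate 1, and Il1b without CDDO-Me replicate 3 or any 1 vehicle library. The member that fell was Spp1 (osteopontin), far more abundant, at 4426, 5049 and 4339 TPM with vehicle and 2434, 2229.7 and 1448 TPM with CDDO-Me (log2 fold change -1.20, SE 0.19, adjusted p = 2.09e-04).

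Of 19 chemokine genes tested, 4 were called lower (background 5.28%), 1 higher (background 4.49%) and 14 not called, with a median log2 fold change of -0.02. Without replicate 3 the counts were 3 and 0. The member that rose was Cxcl1 (log2 fold change 1.66, SE 0.40, adjusted p = 0.00985), a neutrophil chemoattractant named after its value was seen. Ccl4, a chemokine that draws monocytes and T cells, was at 80.1, 67.4 and 15.6 TPM with vehicle and 2.18, 5.13 and 5.32 TPM with CDDO-Me (log2 fold change -3.17, SE 0.39, adjusted p = 1.40e-05). Ccl3, a chemokine of the same family, was at 123, 102 and 219.8 TPM and 31.7, 31.1 and 40.7 TPM (log2 fold change -2.00, SE 0.25, adjusted p = 2.22e-05). Replicate 3 had the lowest vehicle value of Ccl4 and the highest of Ccl3. The groups did not overlap for either, which for Ccl4 was a condition for being named among the largest falls. Cxcl14 was 4.54 times lower and Ccl12 8.68 times lower, the latter with an adjusted p of 0.149 without replicate 3. In the chemoattractant receptor list 2 genes rose and 5 fell of 11, against 1 and 3 without replicate 3. Fpr1, which senses formylated bacterial peptides, went from 0.801, 0.426 and 0.669 TPM to 10.5, 9.89 and 15.9 TPM (log2 fold change 2.97, SE 0.37, adjusted p = 1.76e-05). Its relative Fpr2 rose 5.21-fold (adjusted p = 0.0898 without replicate 3). C5ar1, the receptor for complement C5a, fell from 392, 389 and 201 TPM to 146, 133 and 89.2 TPM (log2 fold change -1.37, SE 0.28, adjusted p = 0.00268).

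Fc receptor and complement genes were called lower in 5 and higher in 1 of 21 tested. For the lists of this paragraph the background was 5.28% called lower and 4.49% higher. Fcgr4, an activating receptor for IgG, was at 91.4, 73.8 and 84.9 TPM with vehicle and 13.3, 10.6 and 24.1 TPM with CDDO-Me (log2 fold change -2.38, SE 0.27, adjusted p = 5.85e-06). Fcgr1, the high-affinity IgG receptor, was 2.26 times lower and C3ar1, the C3a receptor, 2.04 times lower. The integrin chain Itgb2 was the member that rose, 1.84-fold. Of the scavenger and phagocytic receptors 2 of 20 were higher and 1 lower. Marco, which binds unopsonized particles, was at 0.795, 0.447 and 0.374 TPM and 5.30, 8.63 and 7.65 TPM (log2 fold change 2.39, SE 0.28, adjusted p = 7.61e-06). Cd36, a receptor for oxidized lipids, was at 584, 591 and 1024 TPM and 1223, 1319 and 2149 TPM (log2 fold change 1.10, SE 0.29, adjusted p = 0.0167). Both had no overlap between the groups, but Cd36 lost its call without CDDO-Me replicate 3 (0.77, adjusted p = 0.0934) and without vehicle replicate 1 or 2. In the NADPH oxidase list 2 of 8 genes rose and none fell, or 4 rose with the replicate block. The proton channel Hvcn1 rose 3.13-fold.

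Cell cycle and DNA replication formed the largest group of falls, with 24 of 33 genes called lower and 1 higher, beside a background of 5.28% called lower, and a median log2 fold change of -1.0. Top2a, the topoisomerase of dividing cells, was at 40.9, 50.3 and 53.7 TPM with vehicle and 13.4, 18.5 and 5.71 TPM with CDDO-Me (log2 fold change -1.98, SE 0.25, adjusted p = 2.36e-05). Ccna2, cyclin A, was at 19.1, 23 and 40.7 TPM and 8.0, 8.01 and 5.4 TPM (log2 fold change -1.75, SE 0.25, adjusted p = 9.77e-05). In both genes replicate 3 held the highest vehicle value and the lowest treated value. Mcm4, of the replicative helicase, was 2.00 times lower and Birc5, survivin, 3.38 times lower. The gene that rose, named after its value was seen, was Cdkn1a, the cell cycle inhibitor p21 (log2 fold change 0.68, SE 0.21, adjusted p = 0.0484), a call lost without scaling (adjusted p = 0.113). Without replicate 3, 17 of the list were called lower and 1 higher.

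Sterol synthesis had 14 of 25 genes called lower and none higher, beside a background of 5.28% called lower, with a median of -0.71. Insig1, which holds SREBP in the endoplasmic reticulum when sterol is plentiful and is itself a SREBP target, was at 80.4, 85.4 and 60.6 TPM with vehicle and 36.1, 39.7 and 28.0 TPM with CDDO-Me (log2 fold change -1.10, SE 0.13, adjusted p = 8.24e-06). Idi1, isopentenyl diphosphate isomerase, was at 47.1, 52.4 and 48.8 TPM and 22.5, 27.6 and 19.3 TPM (log2 fold change -1.07, SE 0.16, adjusted p = 1.62e-04). The treated values lay below every vehicle value for both. Msmo1, a sterol oxidase, was 2.10 times lower and Stard4, a sterol carrier, 1.75 times lower. Srebf2, which encodes the transcription factor of this pathway, fell from 83.2, 88.9 and 71.2 TPM to 62.2, 68.2 and 42.5 TPM (log2 fold change -0.50, SE 0.11, adjusted p = 0.00471). Without replicate 3, 16 of the list were lower. In the fatty acid synthesis list 1 of 15 was lower and none higher, against 0 lower without replicate 3 and 5 with the replicate block.

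In central metabolism, 3 of 23 glycolysis and hypoxia genes rose and none fell. Pkm, pyruvate kinase, was at 1152, 1229 and 810.3 TPM and 2387, 2373 and 2009.6 TPM (log2 fold change 1.11, SE 0.12, adjusted p = 2.96e-06), the glucose transporter Slc2a1 rose 2.26-fold and Aldoa, aldolase, 1.67-fold. Aldoa had a log2 fold change of 0.86, which was lower without vehicle replicate 3 (0.43, adjusted p = 0.0557), and its call was also lost without scaling and without CDDO-Me replicate 1 or 2. Of the tricarboxylic acid cycle and itaconate genes 2 of 12 rose. Pcx, pyruvate carboxylase, rose 2.79-fold, but its log2 fold change of 1.52 was lower without vehicle replicate 3 (0.86, adjusted p = 0.0637), and its call was also lost without CDDO-Me replicate 1 or 2. Acod1, which makes itaconate, went from 1.25, 0.329 and 0.615 TPM to 3.79, 4.42 and 3.64 TPM, with an adjusted p of 0.0306 that became 0.104 without replicate 3, and it was lost without any single library but vehicle replicate 1. The inflammasome and lytic death list had 5 of 14 genes higher and none lower, with Nlrp1b 2.12 times higher. Among lysosome genes 1 of 23 rose and 3 fell, against 3 and 7 without replicate 3. Tfe3, a regulator of lysosome genes, rose 1.40-fold. Gpnmb, a lysosome-associated glycoprotein, was at 6933, 6476 and 16768 TPM with vehicle and 3524, 3617 and 5655 TPM with CDDO-Me (log2 fold change -1.12, SE 0.33, adjusted p = 0.0348), and its groups did not overlap in TPM but did after scaling between libraries. Without vehicle replicate 3, the highest library, its change was smaller (-0.61, adjusted p = 0.142), and the call was also lost without CDDO-Me replicate 1 or 2. No heat shock gene of 14 was called, 2 of 15 integrated stress response genes were lower, and 2 of 28 proteasome genes were higher. These and the other counts of this paragraph stand beside a background of 4.49% called higher and 5.28% lower. With the replicate block 4 integrated stress response genes were lower, and without replicate 3, 4 proteasome genes were higher.

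Interferon genes were not called higher in NRF2 KO CM. Of 33 type I interferon response genes tested, none was called higher and 4 were called lower, or 8 with the replicate block, beside a background of 4.49% called higher and 5.28% lower. Rtp4 was at 29.2, 20.4 and 43.0 TPM with vehicle and 5.50, 7.21 and 8.25 TPM with CDDO-Me (log2 fold change -1.94, SE 0.28, adjusted p = 9.77e-05), the others being Ifi44 (adjusted p = 0.0119), Rsad2 (0.0269) and Ifit3 (0.0339). Without replicate 3 the adjusted p of these 3 was 0.113, 0.0641 and 0.164, and Rsad2 and Ifit3 were also lost without most single libraries. Of 28 interferon gamma response genes, 2 were lower and none higher, and 26 were not called. Tgtp2, an interferon-induced GTPase, was at 6.86, 8.42 and 4.08 TPM and 1.97, 1.86 and 0.860 TPM (log2 fold change -1.52, SE 0.24, adjusted p = 2.02e-04), and Irgm1 was 1.32 times lower (log2 fold change -0.37, SE 0.11, adjusted p = 0.0343), a call lost without CDDO-Me replicate 2 (-0.25, adjusted p = 0.191), CDDO-Me replicate 1, or vehicle replicate 1 or 2. Irf1, an interferon-induced transcription factor, was at 62.7, 52.5 and 76.5 TPM and 69.6, 66.2 and 86.7 TPM, overlapping (log2 fold change 0.22, SE 0.25, adjusted p = 0.709). Of the MHC lists, 1 of 18 class I genes was higher and 1 lower (Nlrc5, lost without CDDO-Me replicate 3 or vehicle replicate 1 or 2, and Calr, with an adjusted p of 0.0803 without replicate 3), and 1 of 14 class II genes was higher (3 with the replicate block and 0 without replicate 3). The checkpoint ligand Cd274 was at 21.0, 16.1 and 23.3 TPM and 16, 14.5 and 28.3 TPM (log2 fold change -0.08, SE 0.30, adjusted p = 0.932), while Tnfsf4, a costimulatory ligand, rose from 0.205, 0.0819 and 0 TPM to 2.45, 2.34 and 9.85 TPM (log2 fold change 2.19, SE 0.39, adjusted p = 8.59e-04).

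Of 28 alternative activation genes, 2 were called higher (background 4.49%), 3 lower (background 5.28%) and 23 were not called, with a median log2 fold change of 0.00. Folr2, a folate receptor of tissue macrophages, was at 262, 291 and 242 TPM with vehicle and 72.1, 84.0 and 48.2 TPM with CDDO-Me (log2 fold change -1.97, SE 0.19, adjusted p = 8.04e-07). Pparg, a lipid-sensing nuclear receptor, was at 67.4, 63.0 and 66.4 TPM and 34.0, 34.0 and 31.3 TPM (log2 fold change -0.96, SE 0.12, adjusted p = 1.62e-05). Tgm2, a transglutaminase, was 4.13 times lower, whereas Clec10a, a C-type lectin, rose 1.64-fold and Egr2, a transcription factor named after its value was seen, also rose (log2 fold change 0.80, SE 0.21, adjusted p = 0.02), a call lost without vehicle replicate 1 (adjusted p = 0.0908). With the replicate block 4 were higher and 5 lower. Arg1 was at 0.548, 0.0532 and 1.29 TPM with vehicle and 0.0281, 0.427 and 0 TPM with CDDO-Me, close to nothing in all 6 libraries (log2 fold change -0.48, SE 0.21, adjusted p = 0.20), and passed only without vehicle replicate 2 (adjusted p = 0.0142). Mrc1 was at 251, 238 and 500.1 TPM and 199, 221 and 258 TPM, with overlap (log2 fold change -0.46, SE 0.25, adjusted p = 0.323).

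Few markers of other cell types moved. Mast cell and basophil markers summed to 10.0 to 23.3 TPM with vehicle and 2.13 to 6.07 TPM with CDDO-Me, and 2 of its 3 tested members, Kit and Mcpt8, fell (log2 fold changes -1.66 and -1.41, the latter not called without vehicle replicate 2 or CDDO-Me replicate 3), with Fcer1a and Ms4a2 at 0 in all 6 libraries. Neutrophil markers summed to 14.6 to 31.5 TPM with vehicle and 35.1 to 65.5 TPM with CDDO-Me. Of 5 tested members 1 was called, S100a8, which rose 3.88-fold (not called without CDDO-Me replicate 3, 1.32, adjusted p = 0.0578). Camp (log2 fold change 1.00, adjusted p = 0.0806), S100a9 (0.19, adjusted p = 0.908) and Ngp (-0.25, adjusted p = 0.848) were not called with limma. The median log2 fold change of the 5 was 0.19, and Ly6g and Retnlg were at 0 in all 6 libraries. These neutrophil sums moved in the same direction as Mmp8 and Slpi, and their part in those changes was not tested. No fibroblast marker of 12 was called, or 2 lower with the replicate block, and their median log2 fold change was -0.52. Ogn and Sfrp4, secreted proteins of connective tissue cells that were among the 10 largest falls, were at 54.6, 65.8 and 86.5 TPM and 44.6, 68.3 and 17.7 TPM with vehicle and at 14.7, 15.3 and 4.15 TPM and 6.71, 8.13 and 1.35 TPM with CDDO-Me. Without replicate 3 neither passed (adjusted p = 0.166 for Ogn and 0.0597 for Sfrp4), and the part of the fibroblast level in their fall was not tested. Of the macrophage markers, 3 of 12 were lower, C1qb (log2 fold change -0.67), Cd68 (-0.64) and Fcgr1, and 3 were higher with the replicate block. Cd68 lost its call without vehicle replicate 3 (-0.42, adjusted p = 0.0982) and without CDDO-Me replicate 1 or 2. Acp5 of the osteoclast markers and Kdr of the endothelial markers were lower, and no B cell, dendritic, erythroid, epithelial or T and NK cell marker was called. Other large falls were Tmem273, a membrane protein gene, from 123, 96.9 and 56.9 TPM to 15.8, 19.1 and 7.13 TPM (log2 fold change -2.66, SE 0.38, adjusted p = 8.16e-05), Dio2, the deiodinase that activates thyroid hormone, 7.07 times lower, and Ifitm6, 6.36 times lower.

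Whether the response in NRF2 KO CM differed from that in the other media was tested as the difference of the 2 effects in the same model. Against control media no gene of 13661 differed with limma (0 called at an adjusted p of 0.05, with 374 genes at an unadjusted p under 0.05). Named genes had wide errors in this test, and a p that misses the threshold does not show that the effects are alike. The difference was 0.50 (SE 0.47) for Nqo1 and 0.27 (SE 0.40) for Gclm. It was larger for Fpr1, at 2.22 (SE 0.52), and Il1b, at 2.50 (SE 0.98). With no filter on low values 1 gene differed and with array weights 7.

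Against WT CM, 1822 genes differed (13.3% of those tested, 5.72% with a higher and 7.61% with a lower effect in NRF2 KO CM), and against KEAP1 KO CM 1734 genes (12.7%, 5.22% higher and 7.47% lower). Without scaling between libraries 1943 genes differed from KEAP1 KO CM, 57% of them with a higher effect against 41.1% with scaling, and the median of all genes moved from 0.03 to 0.18. Both tests use the same 6 NRF2 KO CM libraries and are not independent of each other. Without replicate 3 in both NRF2 KO CM groups the counts were 2949 and 2896, without replicate 3 in every group 3641 and 3588, and with array weights 4575 and 4412. Interferon genes differed in nearly all members. The effect of CDDO-Me was lower in NRF2 KO CM for 31 of 33 type I interferon genes and 26 of 28 interferon gamma genes against WT CM, and for 31 and 27 against KEAP1 KO CM, with none higher. Their median difference against WT CM was -2.50 for type I and -4.61 for interferon gamma genes, beside 0.04 over all genes tested.

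Irf1 was at 930.0 ± 50.0 TPM (SD, n = 3) in WT CM with CDDO-Me and 81.0 ± 28.0 TPM with vehicle, at 911 ± 50.6 TPM and 71.0 ± 16.9 TPM in KEAP1 KO CM, and at 74.1 ± 11 TPM and 63.9 ± 12.1 TPM in NRF2 KO CM. The difference in effect was -3.45 (SE 0.36, adjusted p = 7.66e-07) against WT CM and -3.64 (SE 0.36, adjusted p = 4.03e-07) against KEAP1 KO CM. In control media it was at 62.1 ± 13.4 TPM with CDDO-Me and 49.7 ± 3.96 TPM with vehicle, so the high values were those of treated cells in WT CM and KEAP1 KO CM. The checkpoint ligand Cd274 had differences of -3.06 and -3.22. Among genes with the largest differences and at least 1 TPM in NRF2 KO CM were Iigp1 (-9.12 and -9.16), Tgtp2 (-8.69 and -8.99), both interferon-induced GTPases, and the chemokine Cxcl10 (-9.18 and -9.98). Fcgr4 fell in NRF2 KO CM, but it was at 1053 ± 51.5 TPM with CDDO-Me and 179 ± 33.6 TPM with vehicle in WT CM, a difference in effect of -5.06 (adjusted p = 7.88e-09). Of the MHC genes, 13 of 18 class I and 9 of 14 class II genes had a lower effect in NRF2 KO CM against each of the 2 media.

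Genes of alternative activation had a higher (less negative) effect in NRF2 KO CM for 19 of 28 and a lower one for 3 against WT CM, and 19 and 4 against KEAP1 KO CM. Part of this count was fixed by the vehicle levels, since 8 of the 28 had a mean under 1 TPM in NRF2 KO CM with vehicle and had no level to lose there, and 7 of these were among the 19 in each difference. Of the other 20 genes 12 had a higher effect in each. Arg1, arginase, was at 663 ± 112 TPM in WT CM with vehicle, 0.125 ± 0.0989 TPM with CDDO-Me, and 0.632 ± 0.625 TPM in NRF2 KO CM with vehicle (difference in effect 8.71, SE 0.30, adjusted p = 4.04e-14). Chil3 (difference 7.89 against WT CM), Mgl2 (7.21) and Ms4a4a (8.16) also stood far lower in NRF2 KO CM with vehicle, Chil3 at 1.69 ± 0.732 TPM against 796 ± 413 TPM in WT CM. Mrc1 was at 329.8 ± 148 TPM in NRF2 KO CM with vehicle and 1171 ± 147 TPM in WT CM with vehicle, with a difference in effect of 3.68. Sterol synthesis genes also had a less negative effect in NRF2 KO CM, higher for 17 of 25 and lower for 1 against each of the 2 media. Idi1 had differences of 2.23 (adjusted p = 6.20e-07) against WT CM and 1.87 against KEAP1 KO CM, and Insig1 of 1.20 and 0.99.

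**Figure D5:**
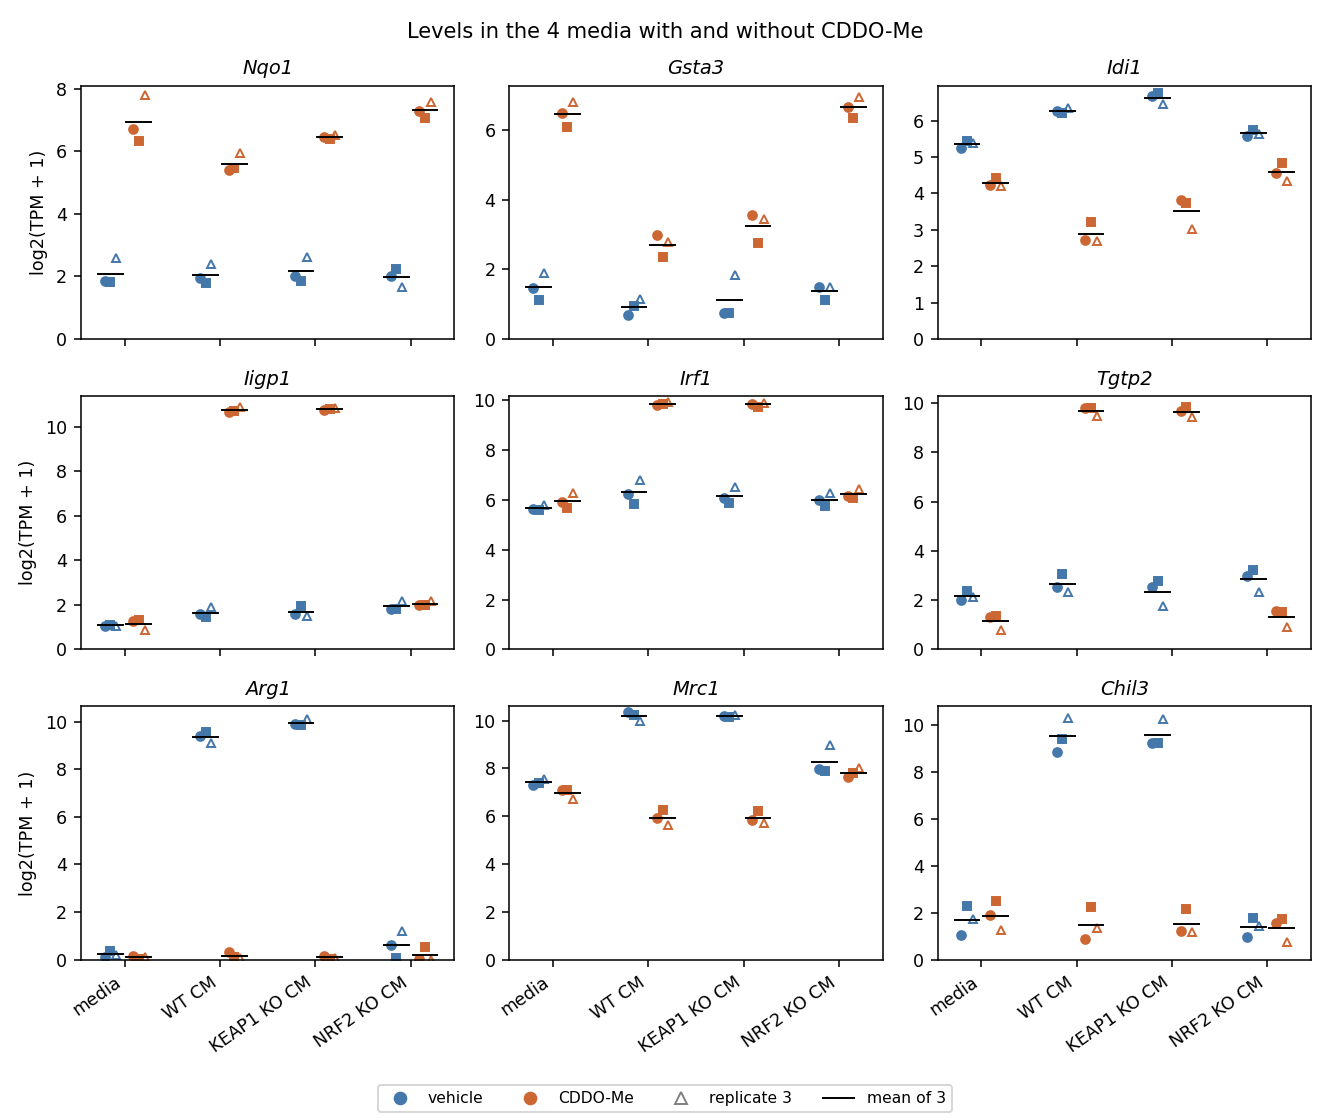
Levels of 9 genes as log2(TPM + 1) in the 4 media, vehicle in blue and CDDO-Me in orange, with 1 point per library (open triangles are replicate 3) and a bar at the mean of 3. Iigp1, Irf1 and Tgtp2 are highest with CDDO-Me in WT CM and KEAP1 KO CM, and Arg1 and Chil3 are highest with vehicle in the same media, and all 5 are lower in NRF2 KO CM and control media.

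Some NRF2 target genes had a higher effect in NRF2 KO CM than in the media of the other cancer cells. Of the 54 tested, 17 had a higher and 1 a lower effect in NRF2 KO CM than in WT CM (median difference 0.52), and 13 and 1 against KEAP1 KO CM (median 0.28). Gsta3 was at 101 ± 21.4 TPM with CDDO-Me in NRF2 KO CM, 89.0 ± 21.6 TPM in control media, 5.65 ± 1.44 TPM in WT CM and 8.76 ± 2.69 TPM in KEAP1 KO CM, a difference in effect of 3.39 (SE 0.46, adjusted p = 2.23e-05) against WT CM and 3.01 (adjusted p = 9.65e-05) against KEAP1 KO CM. Gss differed by 2.17 and 1.56. The member with the lower effect was Txn1, by -1.66 and -1.29. Bst1, among the largest rises in NRF2 KO CM, had a lower effect there than in WT CM (-2.78, adjusted p = 2.97e-04), and it reached 502 ± 25.6 TPM in WT CM and 57.9 ± 33.2 TPM in NRF2 KO CM.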

How the data were processed

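Poly-A RNA of BMDMs was sequenced, and the authors quantified transcripts with Kallisto on GRCm39. The deposited values are gene-level TPM, length-scaled per the file name, with columns that share 1 total (999365 to 999801 over named genes), so depth is unknown and no count test was used. A row without a gene name (0.0199% to 0.0635% of a library) was left out. Columns were matched to samples by the library name in the labels.

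Here the deposited TPM were scaled by trimmed means of M values (30% trimmed on ratios, 5% on level), and genes above 1 TPM in at least 3 libraries were kept (13661). log2(TPM + 1) values of 24 libraries in 8 groups were fitted with limma 3.58.1 in R 4.3.3 (empirical Bayes with trend, 16 residual degrees of freedom), with Benjamini-Hochberg adjustment over all genes tested. Fold changes on this scale understate changes of low genes. An exact test of 3 against 3 samples cannot go below p = 0.10. Printed levels are the deposited TPM, before scaling. "Times higher" or "lower" is the ratio of mean TPM. The test was also run on simulated data with independent noise, of equal spread in all libraries for a given gene. These held no outlying replicate, so the run does not cover the replicate 3 libraries seen here.

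Named genes were the 10 largest rises and falls past the threshold with at least 1 TPM and no overlap, up to 4 members per list by adjusted p, NRF2 list members past the threshold, genes the study names, and up to 5 genes each way per difference between media. The members and lists were chosen with earlier results of these data known. Same-numbered libraries of the 2 groups had correlations of deviations of 0.50, 0.59 and 0.72, all above the limit of 0.1 set for pairing. Replicates 1 and 2 of different number reached 0.47 and 0.59 as well. Deviations from a group mean cancel out, and replicate 3 stood apart in both groups, so these values cannot show that the numbers pair replicates 1 and 2. The main fit had no replicate block. Alternatives were other scalings, filters, pseudocounts, priors, weights, a replicate block, fewer libraries, and each library left out. Promoters were RefSeq, and motifs were searched in Python. Some genes of the lists are not reported here by name.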

Additional observations from a re-analysis of the deposited data

Results flagged for a closer look

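The effect of CDDO-Me in NRF2 KO CM differed from that in WT CM for 1822 genes and from that in KEAP1 KO CM for 1734 genes by limma's test of the difference. Each value below is that difference on the log2 scale, first against WT CM and then against KEAP1 KO CM, with all adjusted p below 0.05. Interferon genes had a lower effect in NRF2 KO CM: Irf1 -3.45 and -3.64, Cxcl10 -9.18 and -9.98, Tgtp2 -8.69 and -8.99, Iigp1 -9.12 and -9.16, and Cd274 -3.06 and -3.22. Fcgr4 (-5.06 and -5.47), Bst1 (-2.78 and -3.09) and Txn1 (-1.66 and -1.29) were lower too. Alternative activation genes had a higher effect, with Arg1 at 8.71 and 9.32, Chil3 at 7.89 and 7.84, Mgl2 at 7.21 and 7.23, Ms4a4a at 8.16 and 6.62, and Mrc1 at 3.68 and 3.64. Arg1 and Chil3 were at 0.632 ± 0.625 TPM and 1.69 ± 0.732 TPM in NRF2 KO CM with vehicle, so they had hardly a level to lose there and their differences restate their vehicle levels. Of the other genes, Gsta3 (3.39 and 3.01), Gss (2.17 and 1.56), Idi1 (2.23 and 1.87) and Insig1 (1.20 and 0.99) also had a higher effect in NRF2 KO CM. Against control media 0 of 13661 genes differed at the same threshold, which does not show that those effects are alike. In control media, 1 of 33 type I interferon genes was called higher with CDDO-Me and 1 lower. Of 28 interferon gamma genes there, 0 were higher and 2 lower, and 13 of 25 sterol synthesis genes were lower. No formal outlier test was run on groups of 3 libraries.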

How the results depend on the processing

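For CDDO-Me against vehicle in NRF2 KO CM, 1335 genes were called, and other scalings, filters, pseudocounts and the prior without a trend gave 1045 to 1343. The count was 3033 with array weights, 142 with the 6 NRF2 KO CM libraries alone, and 634 with those 6 and a replicate block, and it ran from 1049 to 1501 with libraries left out. The replicate block over all 24 libraries gave 1988, which held all 1335, and among the gene values named here it changed the call of Bach1 only. The 4 libraries of replicates 1 and 2 alone gave 1458 genes, 884 of them among the 1335, an alternative added after the data were seen. The difference from control media was 0 genes, 1 with no filter, 7 with array weights, and 0 with any library left out. The difference from WT CM was 4575 genes with array weights, 2949 without replicate 3 in both NRF2 KO CM groups and 1595 to 3641 with libraries left out, and from KEAP1 KO CM 4412, 2896 and 1522 to 3588. Of the fits with libraries left out, both were highest without replicate 3 in every group. Without scaling, the share of genes with a higher effect rose from 41.1% to 57% against KEAP1 KO CM, with a median over all genes of 0.18. Of 2576 gene values under these alternatives, 2373 kept direction and call, 185 lost the call, 14 gained it and 4 changed sign. In the 6 libraries alone 65 of 105 values lost the call. Values that changed sign were small. Cd274 was 0.10 without vehicle replicate 3, 0.054 without CDDO-Me replicate 1 and 0.15 without CDDO-Me replicate 2, and ranged from -0.43 to 0.15 with libraries left out. The difference from control media was -0.096 for Gclm without CDDO-Me replicate 3 (range -0.10 to 0.64). The cause was not tested.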

Other observations

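T cell receptor alpha variable segments, which are rearranged in T cells, were among the largest falls. Of 130 Trav gene names in the file, 14 passed the filter, 6 were called lower and none higher, with a median log2 fold change of -0.81. The background was 5.28% called lower and 4.49% higher. Members of the family were already among the 10 largest falls of this comparison, so the count partly repeats them and is a description only. Trav15-3 is annotated as a pseudogene of such a segment. It was at 14.4, 16.1 and 12.3 TPM with vehicle and 0, 2.32 and 0 TPM with CDDO-Me (log2 fold change -3.35, SE 0.52, adjusted p = 2.28e-04). The constant segment Trac was at 1.5, 0.615 and 0.427 TPM and 2.89, 0.334 and 0 TPM (log2 fold change -0.06, SE 0.38, adjusted p = 0.961), and all 10 T and NK cell markers were below 1 TPM in the 6 libraries. Trav segments are near-identical copies that can share reads, so the level of each is uncertain.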
